A study of Mus musculus with 12 samples.

Results

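The genes described here were 40 antiviral genes that type I interferons are known to induce. They were chosen by symbol, from what is known of the response and with earlier results of these data known, so their shares below describe the list and are no independent evidence. All 40 were among the 24956 named genes of the deposited count table. They were measured in 12 tumours of PDA.69, a cell line of pancreatic ductal adenocarcinoma derived from KPC mice (a genetically engineered pancreatic cancer model) which the labels call low in T cells. The hosts were WT (wild-type) for 6 tumours and of the genotype Alb-Cre+/+ Stat3f/f, named Alb-Cre Stat3f/f below, for the other 6. In such hosts the albumin promoter drives Cre recombinase in hepatocytes, so the floxed Stat3 gene is deleted in the liver of the host, while the implanted line was the same in both groups. The labels number the tumours within each genotype but do not say that each came from its own animal, and they give no strain, age, sex or time of collection, so p-values measure the spread between these tumours. The numbers that start the sample descriptions were all lower for Alb-Cre Stat3f/f than for WT tumours. What they stand for is not given, and anything that follows them cannot be told apart from genotype. The question, from the title of the series, is how hepatocytes bear on immune evasion in the tumour.

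Type I interferons (interferon alpha and beta) are secreted when a cell senses foreign or misplaced nucleic acid. They bind a receptor of the chains Ifnar1 and Ifnar2, whose kinases Jak1 and Tyk2 activate the factor ISGF3, which holds Stat2 and Irf9. ISGF3 binds the interferon-stimulated response element, a short sequence in the promoters of many antiviral genes. Interferon gamma, made mainly by T and natural killer cells, acts through a receptor of its own and through another short promoter sequence, the gamma-activated site, and it induces many of the same genes.

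The response element could be looked for in the promoters of 30 of the 40 genes, whose windows of 250 bases before to 50 bases after the transcription start were in the RefSeq table for build GRCm38.p6. The core searched was GAAA, any 2 bases and GAAA again, on either strand. It stood in 13 of the 30 (43.3%), and in 1079 of all 27025 genes with a window (3.99%). A stricter core, in which the first of the 2 middle bases must be C and each match of which is also a match of the looser core, stood in 8 of the 30 (26.7%) and in 0.792% of all genes. The core of the gamma-activated site, TTCNNNGAA, which reads the same on both strands, stood in 7 of the 30 (23.3%) and in 9.55% of all genes. There were 4 members with both the response element core and TTCNNNGAA. Dhx58, Oas2, Mx1, Mx2, Usp18, Rtp4, Zbp1, Parp9, Parp14 and Tor3a had no window in the table.

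In 9 members the core lay before the start, and these stretches show how closely the cores are packed in some promoters and how single they are in others. Trim30a is shown because it passed the test described below, and the other 8 were chosen after their values were seen. Capitals mark the core or the run of overlapping cores, with 15 bases on either side where the window allows, and each sequence reads along the sense strand of the gene, so that a core on the other strand appears as TTTC, 2 bases and TTTC.
Isg15 (chr4:156200860-156200911, minus strand): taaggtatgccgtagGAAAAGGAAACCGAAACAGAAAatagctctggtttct
Ifit1 (chr19:34640770-34640828, plus strand): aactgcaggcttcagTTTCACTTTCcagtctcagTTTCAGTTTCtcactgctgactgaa
Ifit3 (chr19:34583358-34583431, plus strand): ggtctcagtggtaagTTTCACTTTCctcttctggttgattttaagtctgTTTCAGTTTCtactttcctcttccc
Oas1a (chr5:120907526-120907560, minus strand): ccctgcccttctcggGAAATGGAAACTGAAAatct
Oas3 (chr5:120777710-120777749, minus strand): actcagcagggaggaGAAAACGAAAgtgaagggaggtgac
Rsad2 (chr12:26456548-26456587, minus strand): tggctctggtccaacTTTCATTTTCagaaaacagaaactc
Bst2 (chr8:71537572-71537617, minus strand): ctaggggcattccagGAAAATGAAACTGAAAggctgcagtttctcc
Trim30a (chr7:104465205-104465244, minus strand): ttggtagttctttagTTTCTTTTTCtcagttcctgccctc
Ddx60 (chr8:61928019-61928086, plus strand): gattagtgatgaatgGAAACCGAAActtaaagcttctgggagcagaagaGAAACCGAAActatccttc
Isg15 held 3 overlapping cores between 78 and 57 bases before its start, Ifit1, Ifit3, Oas1a, Bst2 and Ddx60 held 2 each, and Oas3, Rsad2 and Trim30a held 1. Ifih1, Ddx58, Eif2ak2 and Ifitm3 held a core only in the 50 bases after the start. A match describes the letters of the window and not a bound site. Among tested members the median log2 fold change between hosts was 0.50 for the 12 with the core. It was 0.46 for the 17 with a window but no core. In each of these groups 1 member was called higher (Trim30a and Sp100), beside 2.23% of all genes. The other called members, Oas2, Rtp4 and Parp14, had no window and stand in neither group, so these counts do not relate the core to the calls.

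As a group the antiviral genes were modestly higher in the tumours of Alb-Cre Stat3f/f hosts. The fold change, Alb-Cre Stat3f/f over WT, was positive for 37 of the 39 members tested, beside 50% of all 12856 genes tested. Its median was 0.48 on the log2 scale, a fold of 1.39, beside -0.00 over all genes, and it ran from -0.23 for Oasl1 (0.854-fold) to 1.49 for Oas2 (2.80-fold). By edgeR's quasi-likelihood test, with p-values adjusted by the Benjamini-Hochberg method over all genes and a threshold of 0.05, 5 of the 39 rose (12.8%, beside 2.23% of all genes) and 0 fell (beside 0.747%). The 5 were Sp100, Rtp4, Trim30a, Oas2 and Parp14, and the other 34 did not pass. At an unadjusted p under 0.05, 28 members were higher (71.8%, beside 11.5% of all genes) and 0 lower (beside 7.83%). Another count test, DESeq2, called 12 higher (beside 4.81% of all genes) and 0 lower (beside 2.24%), and limma-voom called 4 higher (beside 2.04%) and 0 lower (beside 0.614%). The members were read in the same tumours, so these counts are not 39 independent readings. Levels are given as CPM, the usual scaling of counts to library size, after trimmed-mean normalisation.

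**Figure D1:**
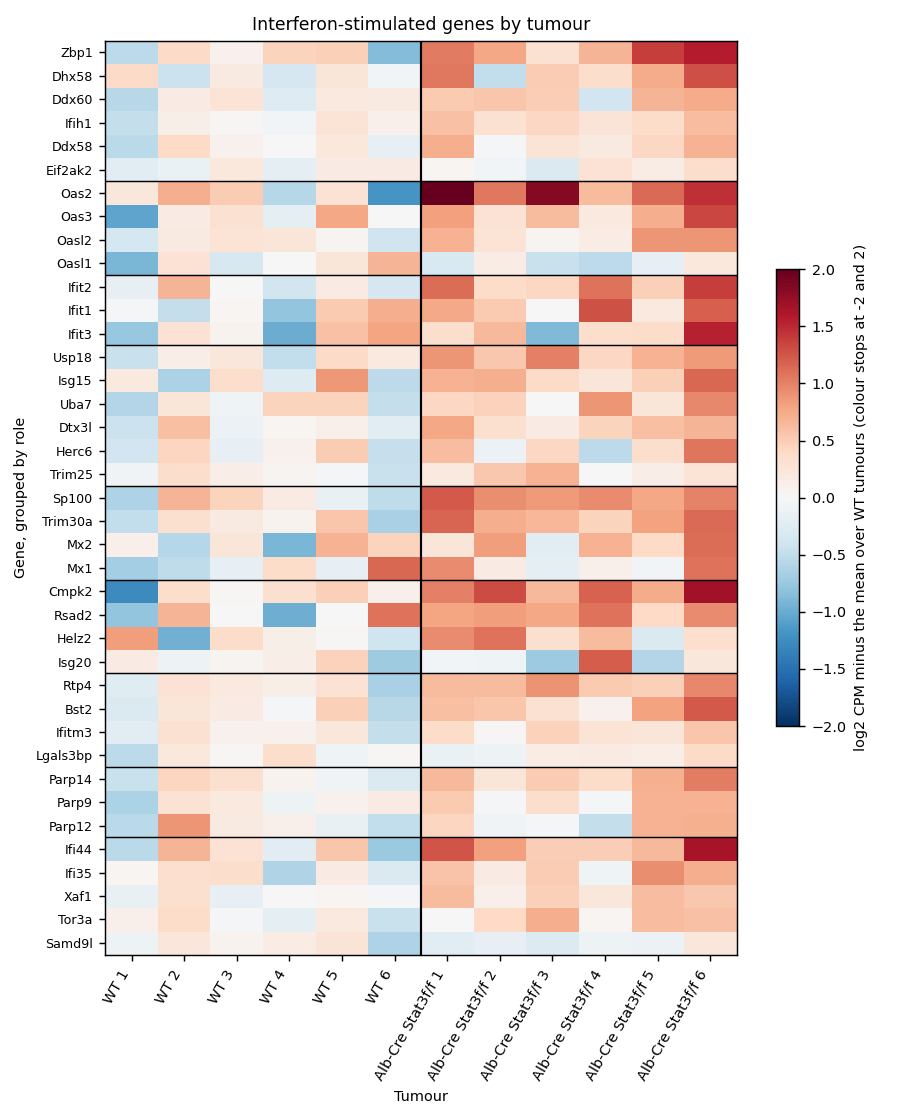
Log2 CPM of the 39 tested antiviral genes (rows, grouped by role) in each of the 12 tumours (columns), minus the mean of that gene over the 6 WT tumours; red is higher and blue lower, and the colour stops at -2 and 2. Most rows are red in the Alb-Cre Stat3f/f tumours, above all in tumour 6, and of the WT tumours WT 1 and WT 6 have the most blue cells.

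**Figure D2:**
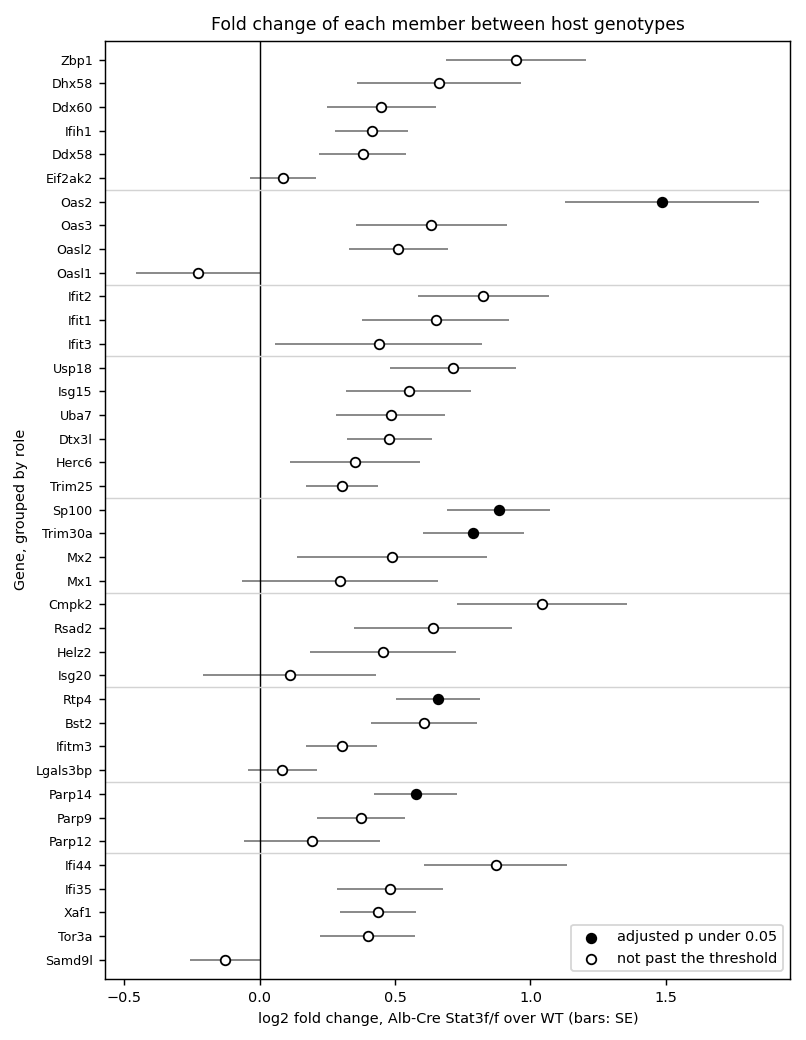
Log2 fold change of each tested member between hosts (points) with its SE from the edgeR fit (bars), grouped by role; filled points passed an adjusted p of 0.05. Points run from -0.23 for Oasl1 to 1.49 for Oas2, with 5 filled.

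The number of calls rested on single tumours, while the direction did not. Leaving out each tumour in turn, 36 or 37 of the 39 members kept a positive fold change and the median stayed between 0.41 and 0.57. The number called higher ranged from 1 to 7. Of the WT tumours, leaving out tumour 1 gave 1 call, tumours 4 or 6 gave 2, tumour 3 gave 3, tumour 5 gave 5 and tumour 2 gave 7. Of the Alb-Cre Stat3f/f tumours, tumour 1 gave 1 call, tumour 6 gave 2, tumour 3 gave 3, tumours 2 or 5 gave 5 and tumour 4 gave 6. Over all genes, the number higher moved in the same fits as well, from 287 to 187 when WT 1 was left out, 157 when WT 6 was, and 141 and 471 when Alb-Cre Stat3f/f 1 or 5 was, the lowest and the highest of the 12. Sp100 passed in 12 of these 12 fits, Rtp4 in 8, Oas2 in 7, Trim30a in 6 and Parp14 in 3.

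The restriction factors held 2 of the 5 called genes. Sp100 (chromosome 1, 85649948 to 85709998), a protein of nuclear bodies that silences viral genomes, had 11.4 CPM in the lowest WT tumour, 17.5 at the median and 27.8 in the highest, against 29.7, 33.3 and 40.5 in Alb-Cre Stat3f/f tumours. All 6 Alb-Cre Stat3f/f tumours thus lay above every WT tumour. Sp100 rose by 0.88 ± 0.19 (log2, SE; edgeR adjusted p = 0.0155), and its adjusted p was 0.0491 at most when any 1 tumour was left out. Trim30a (chromosome 7, 104409025 to 104465193), a tripartite motif protein that restrains inflammatory signalling, had 17.6, 30.1 and 40.5 CPM in WT and 37.4, 47.0 and 61.6 in Alb-Cre Stat3f/f tumours (lowest, median, highest). Here 5 of 6 tumours lay above every WT tumour, and tumour 4 fell inside the WT range. Trim30a rose by 0.79 ± 0.19 (edgeR adjusted p = 0.0259), but missed the threshold when WT 1, 3, 4 or 6 or Alb-Cre Stat3f/f 1 or 6 was left out (adjusted p of up to 0.0760). Mx1 and Mx2 belong to a family of dynamin-like GTPases, some of which trap viral nucleocapsids. The strain is not given, so whether these tumours could make working Mx proteins is not known. Both genes had few counts (12 to 49 per tumour for Mx1). Mx1 had 1.82, 2.62 and 6.51 CPM in WT and 2.57, 3.21 and 6.21 in Alb-Cre Stat3f/f tumours, so that its groups overlapped fully, with a log2 fold change of 0.30 ± 0.36 (edgeR adjusted p = 0.698). For Mx2 it was 0.49 ± 0.35 (edgeR adjusted p = 0.474).

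The oligoadenylate synthetases make short adenylate chains that switch on RNase L, which cuts RNA. Oas2 (chromosome 5, 120730333 to 120749886) had 1.25 CPM in the lowest WT tumour, 3.37 at the median and 4.65 in the highest, and 4.36, 6.94 and 17.96 in Alb-Cre Stat3f/f tumours. All but Alb-Cre Stat3f/f 4 lay above every WT tumour, and tumours 1 (17.96 CPM) and 3 (10.1) stood above the other 4. Oas2 rose by 1.49 ± 0.36 (edgeR adjusted p = 0.0275), the largest fold change of the 39, on 9 to 102 counts per tumour. It missed the threshold when WT 1, 4 or 6 or Alb-Cre Stat3f/f 1 or 3 was left out (adjusted p of up to 0.101). Oas3 lies 3211 bases from Oas2 and had a log2 fold change of 0.63 ± 0.28 (edgeR adjusted p = 0.216), and Oasl2, an Oas-like protein, of 0.51 ± 0.18 (adjusted p = 0.125). Oasl1, which limits translation of Irf7 in mice, was on the other side of 0. It had 7.28, 14.95 and 21.9 CPM in WT and 9.46, 11.6 and 15.8 in Alb-Cre Stat3f/f tumours, and a log2 fold change of -0.23 ± 0.23 (edgeR adjusted p = 0.624). Oas1a did not pass the filter on low counts, with 0 to 13 counts in a tumour.

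Among membrane and secreted proteins, Rtp4 (chromosome 16, 23520219 to 23614222), a receptor transport protein with antiviral activity, rose. Its CPM was 17.2, 30.3 and 33.0 in WT and 37.6, 41.8 and 52.5 in Alb-Cre Stat3f/f tumours, so the groups did not overlap. The log2 fold change of Rtp4 was 0.66 ± 0.15 (edgeR adjusted p = 0.0232); it missed the threshold when WT 1 or Alb-Cre Stat3f/f 1, 3 or 6 was left out (adjusted p of up to 0.0608). Bst2 (tetherin), which holds budding virions at the cell surface, had 103, 160 and 211 CPM in WT and 162, 228 and 355 in Alb-Cre Stat3f/f tumours. Its log2 fold change of 0.61 ± 0.20 did not pass (edgeR adjusted p = 0.108), with 4 of 6 tumours above every WT tumour. Ifitm3, which blocks the entry of virus from endosomes, had 727, 1078 and 1251 CPM in WT and 1025, 1267 and 1481 in Alb-Cre Stat3f/f tumours, and a log2 fold change of 0.30 ± 0.13 (edgeR adjusted p = 0.212). Lgals3bp, a secreted galectin-binding glycoprotein, had 231, 337 and 424 CPM in WT and 303, 366 and 431 in Alb-Cre Stat3f/f tumours, with a log2 fold change of 0.08 ± 0.13 (edgeR adjusted p = 0.766).

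Of the 3 ADP-ribosyltransferases, Parp14 (chromosome 16, 35831892 to 35871518) rose. It had 51.1, 69.5 and 93.8 CPM in WT and 82.8, 104 and 143 in Alb-Cre Stat3f/f tumours, with 4 of 6 above every WT tumour. Its log2 fold change was 0.58 ± 0.15 (edgeR adjusted p = 0.0475), and of the 12 fits that left out 1 tumour it passed in 3, which left out WT 2 or Alb-Cre Stat3f/f 2 or 4, with an adjusted p of up to 0.115 in the rest. Parp9 had a log2 fold change of 0.38 ± 0.16 (edgeR adjusted p = 0.207). Parp12 had 8.30, 11.98 and 22.3 CPM in WT and 8.71, 14.0 and 19.8 in Alb-Cre Stat3f/f tumours, ranges that overlapped, and a log2 fold change of 0.20 ± 0.25 (edgeR adjusted p = 0.715). Parp9 overlaps Dtx3l, a ubiquitin ligase that works with it, on chromosome 16, and the strand setting of the counting is not given, so their reads may not have been told apart.

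None of the 6 tested nucleic acid sensors passed (beside 2.23% of all genes higher). All 6 had positive fold changes, beside 50% of all genes. Of the 6, 5 were higher at an unadjusted edgeR p under 0.05, beside 11.5% of all genes. Zbp1, which senses Z-form nucleic acid and can trigger necroptosis, was the nearest to the threshold. It had 14.97, 32.1 and 37.8 CPM in WT and 33.4, 51.2 and 80.4 in Alb-Cre Stat3f/f tumours, with 5 of 6 above every WT tumour and a log2 fold change of 0.95 ± 0.26 (edgeR adjusted p = 0.0635). Ifih1 (MDA5), a sensor of long double-stranded RNA, varied least among Alb-Cre Stat3f/f tumours, with 29.3, 32.2 and 37.4 CPM against 17.6, 25.6 and 29.8 in WT. Its log2 fold change was 0.41 ± 0.13 (edgeR adjusted p = 0.0945), again with 5 of 6 tumours above every WT tumour. Ddx58 (RIG-I), Dhx58 (LGP2, which modulates both) and Ddx60, a related helicase, had log2 fold changes of 0.38, 0.66 and 0.45. Eif2ak2 (PKR), a kinase that halts translation on binding double-stranded RNA, had ranges that overlapped. Its CPM was 56.0, 65.4 and 74.6 in WT and 52.7, 68.7 and 82.6 in Alb-Cre Stat3f/f tumours, with a log2 fold change of 0.09 ± 0.12 (edgeR adjusted p = 0.747).

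The 3 Ifit proteins, which bind viral RNA, did not pass. Ifit2 had 4.61, 5.67 and 9.57 CPM in WT and 7.72, 10.5 and 15.6 in Alb-Cre Stat3f/f tumours, with 3 of 6 above every WT tumour and a log2 fold change of 0.83 ± 0.24 (edgeR adjusted p = 0.0665). Ifit1 had 9.23, 16.1 and 26.5 CPM in WT and 16.1, 24.9 and 38.9 in Alb-Cre Stat3f/f tumours (log2 fold change 0.65 ± 0.27, edgeR adjusted p = 0.199). Ifit3 spread most widely, with 7.93, 17.9 and 27.2 CPM in WT and 8.57, 20.2 and 45.5 in Alb-Cre Stat3f/f tumours. The value of 45.5 came from tumour 6 alone, the other 5 lay within the WT range, and the log2 fold change was 0.44 ± 0.38 (edgeR adjusted p = 0.576). Ifit1, Ifit2 and Ifit3 are paralogs, as are the Oas, Mx and Trim30 genes, and how reads shared between copies were counted is not given, so the split within each family is uncertain.

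Isg15 is a ubiquitin-like protein that Uba7 activates and Herc6 attaches to other proteins, and Usp18 removes it and also dampens the receptor. None of the 6 genes of this group passed (beside 2.23% of all genes higher), and all 6 had positive fold changes (beside 50% of all genes). Usp18 had 3.19, 5.03 and 5.89 CPM in WT and 6.01, 7.71 and 9.002 in Alb-Cre Stat3f/f tumours. The groups did not overlap, but the log2 fold change of 0.71 ± 0.23 missed the threshold (edgeR adjusted p = 0.0973) on 27 to 64 counts per tumour. Isg15 itself had 12.2, 18.7 and 34.3 CPM in WT and 22.4, 28.5 and 41.8 in Alb-Cre Stat3f/f tumours. All 6 lay above the WT median but only tumour 6 above every WT tumour, and the log2 fold change was 0.55 ± 0.23 (edgeR adjusted p = 0.197). Trim25, a ubiquitin ligase that activates RIG-I, had 75.1, 103 and 130 CPM in WT and 102, 120 and 164 in Alb-Cre Stat3f/f tumours (log2 fold change 0.30 ± 0.13, edgeR adjusted p = 0.206). Dtx3l, Uba7 and Herc6 had log2 fold changes of 0.48, 0.48 and 0.35.

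Of the nucleotide and RNA enzymes, Cmpk2, a mitochondrial nucleotide kinase, and its neighbour Rsad2 (viperin), which makes a nucleotide that stops viral polymerases, lie 12664 bases apart on chromosome 12. Cmpk2 had 1.02, 2.85 and 3.43 CPM in WT and 3.86, 5.24 and 7.86 in Alb-Cre Stat3f/f tumours, with no overlap, and a log2 fold change of 1.04 ± 0.31 (edgeR adjusted p = 0.0725) on 9 to 62 counts. Rsad2 had 6.63, 13.03 and 27.7 CPM in WT and 17.2, 22.8 and 27.6 in Alb-Cre Stat3f/f tumours. No Alb-Cre Stat3f/f tumour exceeded the highest WT tumour, WT 6, and the log2 fold change was 0.64 ± 0.29 (edgeR adjusted p = 0.245). Helz2, a helicase, had a log2 fold change of 0.46 ± 0.27. Isg20, an exonuclease, had 57.8, 101 and 130 CPM in WT and 57.4, 90.4 and 218 in Alb-Cre Stat3f/f tumours, with a log2 fold change of 0.11 ± 0.32 (edgeR adjusted p = 0.889). Its highest value was that of Alb-Cre Stat3f/f 4, and without that tumour the log2 fold change was -0.24.

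Of the 5 remaining members, Ifi44 had 7.21, 12.5 and 19.3 CPM in WT and 16.9, 20.1 and 38.0 in Alb-Cre Stat3f/f tumours, with 3 of 6 above every WT tumour and a log2 fold change of 0.87 ± 0.26 (edgeR adjusted p = 0.0792). Xaf1, an antagonist of an inhibitor of apoptosis, was the steadiest member among WT tumours (coefficient of variation 12.6%) and had a log2 fold change of 0.44 ± 0.14 (edgeR adjusted p = 0.0879). Ifi35 and Tor3a had log2 fold changes of 0.48 and 0.40. Samd9l, which represses translation and growth, was the other member below 0. It had 76.9, 127 and 141 CPM in WT and 97.9, 106 and 138 in Alb-Cre Stat3f/f tumours, of which only 1 lay above the WT median, and a log2 fold change of -0.13 ± 0.13 (edgeR adjusted p = 0.634).

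**Figure D3:**
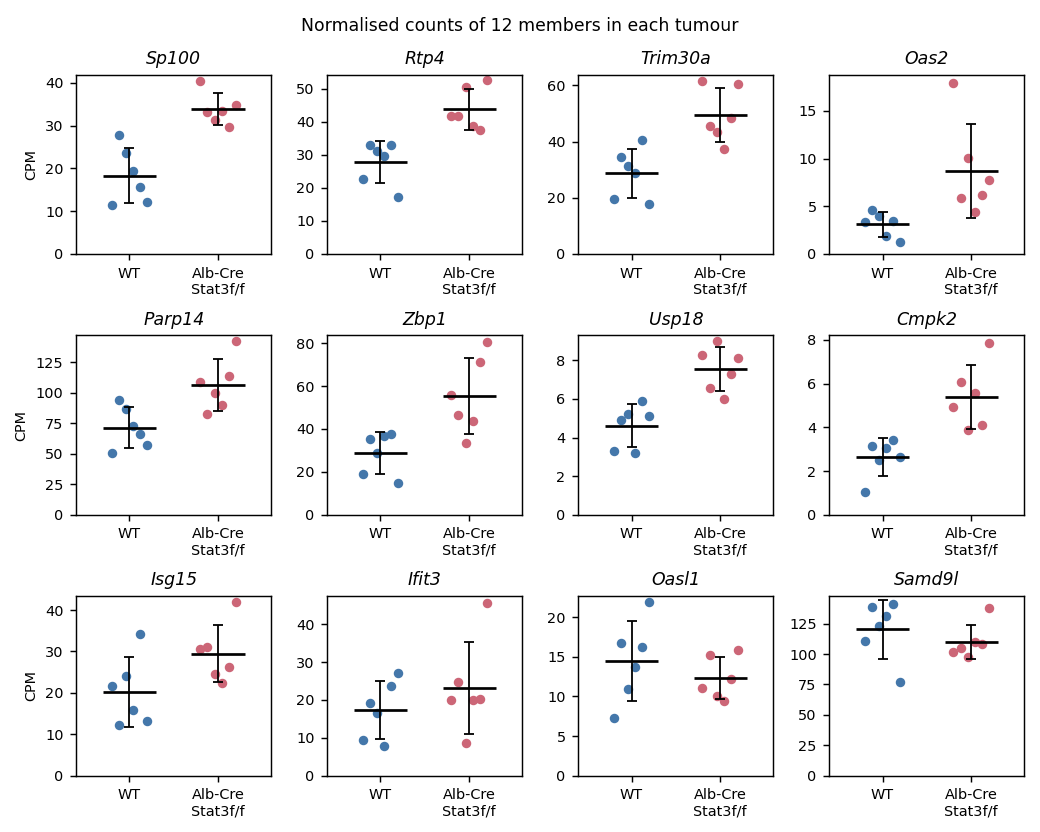
CPM of 12 members in each tumour (points, 6 WT in blue and 6 Alb-Cre Stat3f/f in red), with the mean (horizontal line) and SD (bars); each axis starts at 0. Sp100, Rtp4, Usp18 and Cmpk2 do not overlap between hosts, while Ifit3, Oasl1 and Samd9l overlap.

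The 4 members whose groups did not overlap were Sp100, Rtp4, Usp18 and Cmpk2 (10.3% of 39, beside 1.37% of all genes). A further 5 members had 5 of 6 tumours above every WT tumour, and 5 members had none. The shares of all genes in these classes were not counted, so both numbers only describe the members. Averaged over the 39 members, log2 CPM ran from 4.06 to 4.65 in WT (mean 4.38 ± 0.23 SD, n = 6) and from 4.72 to 5.26 in Alb-Cre Stat3f/f tumours (4.89 ± 0.21), ranges that did not overlap. The sum of CPM over all 40, to which Ifitm3 alone gave 727 to 1481, ran from 1975 to 2939 in WT and from 2725 to 3833 in Alb-Cre Stat3f/f tumours, with 5 of 6 above every WT tumour.

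Single tumours stood out within both groups. Alb-Cre Stat3f/f 6 was the highest of the 12 for 19 of 39 members (48.7%, beside 6.33% of all genes), among them Zbp1 (80.4 CPM), Isg15 (41.8) and Ifit3 (45.5), and it lay above the WT median for all 39. In the other 5 Alb-Cre Stat3f/f tumours 28 to 35 members were above it. The share of all genes above their WT median was not counted for any tumour. Of the WT tumours, WT 1 was the lowest of 12 for 14 members (35.9%, beside 7.09% of all genes) and WT 6 for 11 (28.2%, beside 10.7%). The pattern of WT 6 differed by gene. It had the lowest WT value for 13 members, such as Zbp1 (14.97 CPM), Rtp4 (17.2) and Oas2 (1.25), and the highest WT value for Ifit1 (26.5), Ifit3 (27.2), Rsad2 (27.7), Mx1 (6.51) and Oasl1 (21.9). The median log2 fold change of the members was 0.45 without WT 6 and 0.41 when Alb-Cre Stat3f/f 6 was left out.

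The spread within a group was described by the coefficient of variation (SD over mean). Over members it had a median of 26.5% in WT, beside 19.4% over all genes, and ran from 12.6% for Xaf1 to 54.9% for Rsad2. In Alb-Cre Stat3f/f tumours the median was 23.5%, beside 22.1% over all genes, and the range 10.2% for Ifih1 to 56.9% for Oas2. For the Alb-Cre Stat3f/f tumours it was the larger of the pair for 15 of 39 members (38.5%), beside 60.01% of all genes. Rsad2 went from 54.9% to 15.2%, and Sp100 from 35.4% to 10.99%.

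The interferons themselves were at or near 0. Of 20 type I and III interferon genes, 0 passed the filter on low counts and 16, Ifnb1 among them, had 0 counts in all 12 tumours. The rest held few: Ifna13 had 0 counts over all WT and 5 over all Alb-Cre Stat3f/f tumours, Ifne 2 and 0, Ifnk 5 and 11, and Ifnz 2 and 0. The 5 counts of Ifna13 all came from Alb-Cre Stat3f/f 1, as did 9 of the 11 of Ifnk. Ifng, the gene of interferon gamma, had 11 and 21 counts and was not tested. A count of 0 allows a level of up to 0.371 to 0.527 CPM, depending on the tumour (3 counts of the unscaled library total), and counts this low do not measure a difference in either direction.

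The receptor chains had fold changes near 0, and Stat2 and Irf9 had positive fold changes that did not pass. Ifnar1 had 29.5, 34.0 and 37.9 CPM in WT and 29.1, 36.4 and 47.7 in Alb-Cre Stat3f/f tumours (log2 fold change 0.15 ± 0.13, edgeR adjusted p = 0.558), and Ifnar2 had a log2 fold change of 0.06 ± 0.09 (adjusted p = 0.741). Stat2 had 16.8, 21.7 and 28.4 CPM in WT and 24.8, 32.3 and 39.6 in Alb-Cre Stat3f/f tumours, with 4 of 6 above every WT tumour and a log2 fold change of 0.58 ± 0.16 (edgeR adjusted p = 0.0522) and Irf9 of 0.35 ± 0.17 (adjusted p = 0.262). Jak1 and Tyk2 had log2 fold changes of 0.21 and -0.10. The list for the induction of interferon holds genes that promote it and genes that restrain it, such as Samhd1. Of its 16 tested genes, 2 rose (12.5%, beside 2.23% of all genes). They were Mb21d1 (cGAS, the sensor of DNA in the cytosol), by 0.94 ± 0.19 (edgeR adjusted p = 0.0112), and Samhd1, which depletes nucleotides, by 0.69 ± 0.15 (edgeR adjusted p = 0.0166). Irf7, which amplifies interferon production, had a log2 fold change of 0.56 ± 0.20 (edgeR adjusted p = 0.134). Of 7 inhibitors of the pathway 1 rose (14.3%, beside 2.23% of all genes), namely Ptpn6, a phosphatase of blood cells, by 0.69 ± 0.17 (edgeR adjusted p = 0.0339). Socs1 had a log2 fold change of 0.75 ± 0.26 (edgeR adjusted p = 0.119).

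Of 56 other interferon-induced genes tested, 14 rose (25%, beside 2.23% of all genes) and 0 fell (beside 0.747%), with a median log2 fold change of 0.56. They included Psmb9, Psmb8 and Tap1, which make and carry peptides for presentation, Lap3, an aminopeptidase, and Ifi30, a lysosomal reductase. Psmb9 had 39.2, 102 and 117 CPM in WT and 150, 237 and 305 in Alb-Cre Stat3f/f tumours, without overlap, and rose by 1.41 ± 0.25 (edgeR adjusted p = 0.0126). Tap1 rose by 1.12, Psmb8 by 1.01, Gbp3 by 1.14, Phf11d by 1.09, Ifi205 by 1.09, Trim30d by 1.03, Ifi207 by 0.75, Ifi204 by 0.74, Epsti1 by 0.72, Ifi30 by 0.67, Trafd1 by 0.57 and Lap3 by 0.55. Ifitm1, a relative of Ifitm3, had the opposite sign, with a log2 fold change of -0.59 ± 0.22 (edgeR adjusted p = 0.158). Of 19 tested genes of interferon gamma and its marker genes, 5 rose (26.3%, beside 2.23% of all genes) and 0 fell (beside 0.747%), with a median of 1.04. Irgm1, a GTPase that acts on vacuoles of pathogens, had 6.71, 8.53 and 11.8 CPM in WT and 17.5, 21.1 and 25.4 in Alb-Cre Stat3f/f tumours. Irgm1 rose by 1.28 ± 0.17 (edgeR adjusted p = 0.000499). Gbp4, a guanylate-binding protein, rose by 1.96 ± 0.28 (edgeR adjusted p = 0.00127), the chemokine Cxcl10 by 1.19 ± 0.26 (adjusted p = 0.0172) and Tgtp2 by 1.95 ± 0.49 (adjusted p = 0.0339). Of the related GTPases, Gbp5, Iigp1, Igtp, Irgm2 and Tgtp1 did not pass, with log2 fold changes of 0.76 to 1.32 and edgeR adjusted p-values of 0.0537 to 0.303. Irf1, the transcription factor that interferon gamma induces early, had a log2 fold change of 0.57 ± 0.20 (edgeR adjusted p = 0.132), and the receptor chain Ifngr2 of -0.36 ± 0.12 (adjusted p = 0.109). Over all these lists without the 40, 22 of 102 tested genes rose (21.6%, beside 2.23% of all genes) and 0 fell (beside 0.747%). The number that rose was 13 when WT 4 was left out and 11 when Alb-Cre Stat3f/f 1 was. No test compared the lists with each other.

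**Figure D4:**
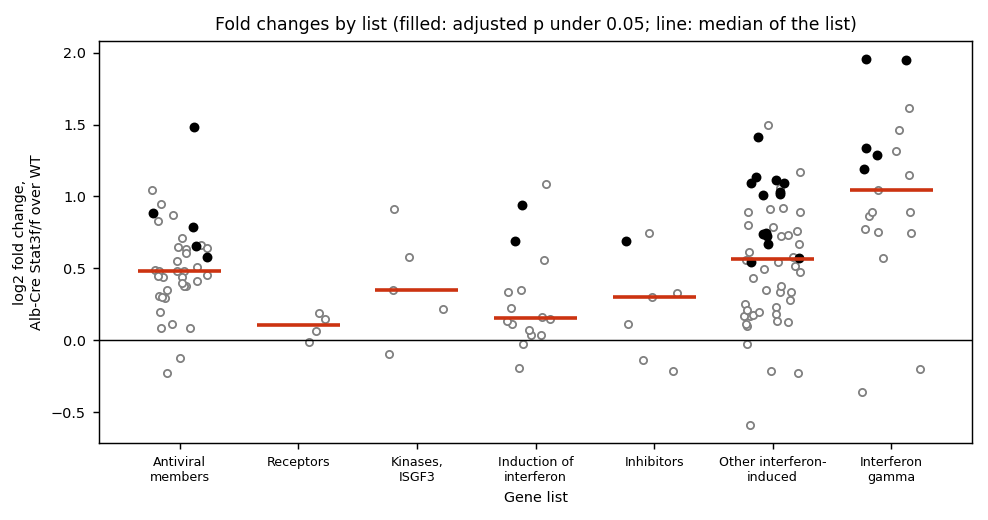
Log2 fold change, Alb-Cre Stat3f/f over WT, of every tested gene in the list of antiviral members and 6 lists of related genes (points; filled, edgeR adjusted p under 0.05; red line, median of the list). The medians run from near 0 for the receptors through 0.48 for the 40 antiviral genes to 1.04 for the interferon gamma list; Stat2, Irf9 and some other genes stand in more than 1 list.

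Several lists of immune cell markers were higher along with the antiviral genes, and others were not. For comparison with the counts below, 2.23% of all genes tested rose, 0.747% fell and 50% had a positive fold change. The ductal markers of the line were present, with a summed 3550 to 4242 CPM in WT and 2569 to 3409 in Alb-Cre Stat3f/f tumours; 0 of 8 had a positive fold change and 2 fell (Krt7 and Sox9). All 8 general leukocyte markers had positive fold changes and 7 rose, and their sum ran from 268 to 455 CPM in WT and from 492 to 711 in Alb-Cre Stat3f/f tumours, without overlap. Of 9 macrophage markers 6 rose, with sums of 1039 to 1584 and 1566 to 2431 CPM. Of 8 tested T cell markers 1 rose (sums 16.4 to 46.7 and 45.4 to 91.5 CPM), and of 7 conventional dendritic cell markers 1 rose (24.7 to 49.8 and 61.3 to 90.5 CPM). Of 6 tested plasmacytoid dendritic cell markers, which include the member Bst2, 1 rose (Pacsin1). Their sum does not measure these cells, since Klk1 and Tcf4 made up much of it. Klk1 had 20.8 to 582 CPM in WT and 40.8 to 2614 in Alb-Cre Stat3f/f tumours, and Tcf4 271 to 335 over all tumours. The defining marker Siglech had 0 to 22 counts per tumour and was not tested. Its CPM was 0 to 0.947 in WT and 1.29 to 3.30 in Alb-Cre Stat3f/f tumours, without overlap. Of 6 monocyte markers 2 rose, Ly6c2 by 1.77 and Ccr2 by 1.29. Of 4 tested neutrophil markers 0 passed, with sums of 47.0 to 164 and 86.8 to 156 CPM that overlapped. None of 1 natural killer and 5 B cell markers tested passed. Of the 5 B cell markers 4 had positive fold changes, and Jchain had -1.43 ± 0.62 (log2, edgeR adjusted p = 0.239). Klra8 of the natural killer list and Cd79a of the B cell list had 0 counts in all tumours, but other markers of these cells were detected. Cd79b had 103 counts over all WT and 213 over all Alb-Cre Stat3f/f tumours, Ms4a1 52 and 246, and Klrb1c 26 and 78. WT 1 and WT 6, each the lowest WT tumour for many members, had leukocyte sums of 348 and 268 CPM, the latter the lowest of the 12. The part of these cell types in the values of the members was not tested, and the fit below with the leukocyte list cannot tell it from genotype. In such bulk samples, more cells of a type and more RNA per cell cannot be told apart.

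The members were therefore also fitted with the leukocyte score (mean log2 CPM of the 8 markers) as a covariate. In that fit 0 of 39 members passed in either direction, beside 0.00778% of all genes higher and 0% lower, and the median log2 fold change was 0.019, with 18 members below 0. Isg15 (-0.50), Bst2 (-0.47), Ifi44 (-0.49) and Oas2 (-0.37) were among those that changed sign, and Sp100 had 0.33 ± 0.42. The fold change was lower than without the score for 30 of 39 members but not for all: it went from 0.64 to 1.597 ± 0.57 for Rsad2, from 0.65 to 1.36 ± 0.53 for Ifit1 and from 0.30 to 1.25 ± 0.82 for Mx1, none of which passed. The score ran from 4.69 to 5.499 in WT and from 5.66 to 6.14 in Alb-Cre Stat3f/f tumours, so score and genotype cannot be told apart in this fit. The median SE of a member rose from 0.201 to 0.430.

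Tumours also differed in acinar genes, the digestive enzymes of normal exocrine pancreas, which took 0.493 to 19.2% of counts in WT (median 3.35%) and 0.675 to 36.1% in Alb-Cre Stat3f/f tumours (median 23.6%). With an acinar score as a covariate the median log2 fold change of the members was 0.53 and 36 of 39 were positive, but 0 passed (beside 1.11% of all genes higher and 0.303% lower), Sp100 having 0.85 ± 0.21 (edgeR adjusted p = 0.0503). Without the 5 tumours in which acinar genes exceeded 15% of counts (WT 5 and Alb-Cre Stat3f/f 1 to 4), the median was 0.76. Of the members, 1 passed in the 7 tumours left (beside 0.607% of all genes higher and 0.102% lower), namely Bst2 at 1.10 ± 0.19 (edgeR adjusted p = 0.0216), and none of the 5 called over all tumours. The log2 fold changes of those 5 were 0.78 for Sp100, 0.76 for Rtp4, 1.05 for Trim30a, 1.201 for Oas2 and 0.83 for Parp14, against 0.88, 0.66, 0.79, 1.49 and 0.58 over all 12. That fit had 5 WT tumours and Alb-Cre Stat3f/f 5 and 6 only, and tumour 6 was the highest of 12 for 19 members.

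**Figure D5:**
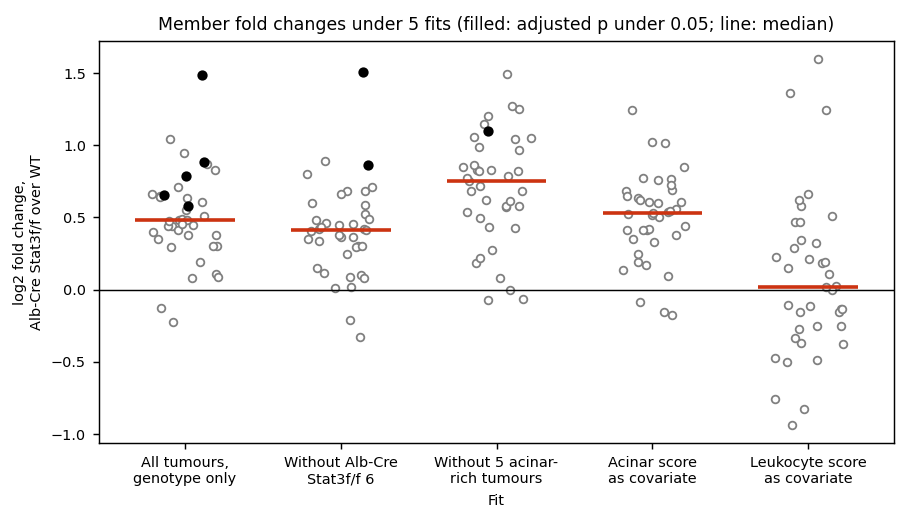
Log2 fold change of the 39 members, Alb-Cre Stat3f/f over WT, under 5 fits (points; filled, adjusted p under 0.05; red line, median). The medians were 0.48 over all tumours, 0.41 without Alb-Cre Stat3f/f 6, 0.76 without the 5 acinar-rich tumours, 0.53 with the acinar score and 0.019 with the leukocyte score as a covariate.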

How the data were processed

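RNA scraped from slides of fixed, paraffin-embedded tumours was made into 3' tag libraries with a QuantSeq FWD kit, per the labels' protocols; such tags give about as many reads for a short transcript as for a long one. The authors deposited raw counts per gene symbol. The submitters' processing notes name STAR and mm10; the sources used here do not give the counting tool, strand setting or use of molecular identifiers, so a molecule may have been read more than once. Of 24982 entries, 26 carried a date in place of a symbol and were left out (0.0690 to 0.166% of counts). Library totals ran from 5691707 to 8085609 counts (median 6630661), with 15221 to 16688 genes detected. Libraries of the same genotype differed by far more than sampling noise (lowest chi-square per gene 12.6).

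Counts were analysed with edgeR 4.0.16 (R 4.3.3): filterByExpr (minimum count 10, total 15), which left 12856 genes, trimmed-mean scaling (TMM factors 0.578 to 1.29) and the two-sided robust quasi-likelihood test of genotype, with no other term and Benjamini-Hochberg adjustment over all tested genes. The SE is that implied by the test. Alternatives used limma 3.58.1 (voom), DESeq2 1.42.0, other scalings and filters, covariates and subsets of tumours. The pipeline was tested on simulated counts. Coordinates and promoters are from RefSeq for GRCm38.p6, the assembly also called mm10.

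The members and gene lists were chosen with earlier results of these data known. Full values are given for members past the threshold and, in each role, for those with the smallest p and the smallest fold change in size; others are named after their values were seen. Of related genes, the 20 past the threshold with the smallest p and, whatever their values, Stat2, Irf9, Irf7, Ifnar1, Ifnar2, Ifnb1, Ifng and Irf1 are named, with a few more for context. Of the genes so chosen, 1 is left out of the text.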

Additional observations from a re-analysis of the deposited data

Results flagged for a closer look

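In 3 of the 78 groups tested (39 members in each of 2 genotypes), 1 tumour stood far from the other 5 by Dixon's criterion, where chance alone flags about 1 group in 20. Isg20, the exonuclease, was at 218.3 CPM in Alb-Cre Stat3f/f 4, and the next tumour of that genotype was at 110.3. Samd9l was at 137.5 CPM in Alb-Cre Stat3f/f 6 and at 110.1 in the next. Ddx60, the helicase, was at 8.56 CPM in Alb-Cre Stat3f/f 4, below the next at 15.6. Alb-Cre Stat3f/f 4 thus held both the highest Isg20 and the lowest Ddx60 of its group.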

How the results depend on the processing

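The numbers of calls moved more than the directions. The members higher were 5 over all tumours and 4 or 5 with other scalings, filters or limma-voom, 12 with DESeq2, 2 with the replicate block, 0 with the acinar or the leukocyte score as a covariate, 1 without the acinar-rich tumours and 1 to 7 without 1 tumour. In the same settings the pathway genes higher were 22 to start with, then 39 (and 1 lower) with DESeq2, 9 with the block, 12 with the acinar score, 0 with the leukocyte score, 7 without acinar-rich tumours and 11 to 30 without 1 tumour. All genes higher and lower were 287 and 96, then 618 and 288, 145 and 44, 143 and 39, 1 and 0, and 83 and 14; without 1 tumour they ran from 141 to 471 and from 37 to 222. The members median log2 fold change moved to 0.019 with the leukocyte score and 0.76 without acinar-rich tumours, and was 0.41 to 0.57 without 1 tumour. Of 889 values of single members under the alternatives, 808 kept direction and side of the threshold, 43 lost the call, 15 gained it and 23 changed sign. With the leukocyte score these were Isg15 (-0.50), Ifi35 (-0.13), Ifi44 (-0.49), Ddx58 (-0.11), Oas2 (-0.37), Oas3 (-0.16), Oasl2 (-0.13), Rtp4 (-0.16), Bst2 (-0.47), Zbp1 (-0.25), Parp12 (-0.83), Trim25 (-0.33), Trim30a (-0.37), Herc6 (-0.94), Ifitm3 (-0.25) and Tor3a (-0.27); with the acinar score Isg20 (-0.15); without acinar-rich tumours Isg20 (-0.066), Samd9l (0.084) and Helz2 (-0.070). Leaving out 1 tumour turned Lgals3bp (-0.0058 to 0.15, below 0 without WT 1) and Isg20 (-0.24 to 0.23, below 0 without WT 6 or Alb-Cre Stat3f/f 4). The cause was not tested. The replicate numbers were not taken as a pairing: deviations of same-numbered tumours correlated at 0.13, -0.18, -0.08, 0.11, -0.52 and 0.10, and no tumour correlated best with its own number. The share of members with the response element core was 30.0% in the 250 bases before the start alone and 26.7% with the stricter core. Low counts limit Oas1a, Oas2, Cmpk2, Mx1, Mx2 and Usp18.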
